A study of Mus musculus with 5 samples.

Results

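The Zfp-named genes are mouse genes that carried the plain name Zfp (zinc finger protein) followed by a number when the array was designed. All probes with such a name were taken, except those of Zfp42, the gene that marks the Rex1 population. This gave 169 of 28845 gene probes, with 125 names among 15059 named genes. Expression was compared between 4 sorted populations from mouse embryoid bodies, cell aggregates in which stem cells differentiate towards heart. The populations were Rex1+ undifferentiated stem cells at day 0, Bra+ early mesoderm at day 4.5, Flk1+ cardiac mesoderm at day 4.5 and Nkx2.5+ cardiac progenitors at day 7.5. The stem cell line, the sorting reagents and the number of cultures were not given in the labels used here. Each of 5 two-colour arrays set a later population (Cy5) against an earlier one (Cy3). Bra, Flk1 and Nkx2.5 were each set against Rex1, and Nkx2.5 against Bra and against Flk1. Each pair was hybridised on 1 array without dye exchange, so the spread between cultures was not measured and the populations were compared without a test.

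Most zinc finger proteins of the C2H2 type bind DNA through a row of small folds, each held by a zinc ion between cysteines and histidines. Many mouse C2H2 proteins also carry a KRAB domain, which recruits the corepressor Trim28 and, through it, Setdb1 and heterochromatin proteins. In stem cells and early embryos this system silences retroelements and protects imprinted marks. Zfp120, a C2H2 zinc finger gene, was the member given as a marker of the set. The name covers more than this class. Of the 125 names 86 were still current in RefSeq and 38 had been replaced. Among the replaced, 10 were now Zbtb genes, which pair zinc fingers with a BTB domain, 7 were Zscan or Zkscan genes and 4 were ring finger genes. Another 13 had other names. Examples are Zfp162, now Sf1, a splicing factor, and Zfp289, now Arfgap2, a coat protein regulator. Zfp125 had no match.

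Promoter sequences are shown for Zfp120, Zfp59 and Zfp97, which passed as lower than in Rex1 with whole-array loess, and for Zfp398, which passed as higher. Zfp385 also passed as lower, and its window is not shown and its motif matches are not given here. Each window runs from 250 bases before to 50 after the transcription start and comes from RefSeq, build GRCm38.p6, read 5′ to 3′ on the gene's strand. Capitals mark CCGGAA, the core bound by ETS family factors, CCAAT, the NF-Y box, and GCCATNTT, the YY1 core, each on either strand. TTCCGGAA holds CCGGAA on both strands, and the marked motifs do not otherwise overlap. The windows of Zfp60 and Zfp334, which also passed as higher and are not shown, held 1 and 0 matches to CCGGAA. Zfp120 lies at chr2:150136629-150136928 (minus strand), Zfp59 at chr7:27838334-27838633 (plus strand), Zfp97 at chr17:17121133-17121432 (plus strand) and Zfp398 at chr6:47835411-47835710 (plus strand).
Zfp120: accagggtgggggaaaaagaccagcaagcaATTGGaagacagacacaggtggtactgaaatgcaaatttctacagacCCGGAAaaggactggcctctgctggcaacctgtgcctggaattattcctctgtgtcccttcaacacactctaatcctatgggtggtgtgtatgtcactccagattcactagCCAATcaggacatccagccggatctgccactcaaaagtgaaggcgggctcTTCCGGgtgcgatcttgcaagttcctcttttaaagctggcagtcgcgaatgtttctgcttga
Zfp59: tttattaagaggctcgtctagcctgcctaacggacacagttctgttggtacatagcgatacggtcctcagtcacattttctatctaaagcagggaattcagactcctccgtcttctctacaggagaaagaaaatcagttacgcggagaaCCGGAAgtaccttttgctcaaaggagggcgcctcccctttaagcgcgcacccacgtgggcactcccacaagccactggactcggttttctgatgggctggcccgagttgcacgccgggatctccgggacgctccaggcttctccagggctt
Zfp97: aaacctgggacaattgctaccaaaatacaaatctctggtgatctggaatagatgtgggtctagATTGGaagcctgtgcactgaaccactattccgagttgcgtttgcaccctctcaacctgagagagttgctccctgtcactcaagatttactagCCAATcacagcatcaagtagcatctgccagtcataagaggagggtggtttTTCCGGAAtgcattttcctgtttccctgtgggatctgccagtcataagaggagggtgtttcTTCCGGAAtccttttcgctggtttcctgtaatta
Zfp398: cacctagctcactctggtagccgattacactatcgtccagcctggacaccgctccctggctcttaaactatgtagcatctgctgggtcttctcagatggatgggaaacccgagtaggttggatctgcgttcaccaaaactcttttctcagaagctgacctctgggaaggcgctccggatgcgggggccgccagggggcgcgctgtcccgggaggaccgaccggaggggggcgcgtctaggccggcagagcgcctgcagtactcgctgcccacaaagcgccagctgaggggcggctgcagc

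Zfp120 and Zfp97 held CCAAT and TTCCGG at exactly the same distance, 45 bases apart. Over this stretch 41 of 56 bases agreed without a gap (73.2%). This count includes the bases of both motifs, which agree because the stretch was defined by them. The stretches are these.
Zfp120: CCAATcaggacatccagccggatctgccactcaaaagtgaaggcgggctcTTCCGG
Zfp97: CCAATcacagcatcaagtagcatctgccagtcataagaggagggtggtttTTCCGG
This spaced pair, searched on the gene's strand and chosen after both sequences were seen, stood in 46 of 32851 RefSeq promoters (0.14%), which belong to 39 genes. Of those genes 8 are Zfp-named today, and Zfp120 and Zfp97 were the only ones among the array members. Over all 140 promoters found for 104 member genes, CCGGAA was in 31.4%, against 14.9% of all 32851 promoters. GCCATNTT was in 11.4% against 6.05%, and GGGCGG, the Sp1 box, in 47.9% against 35.7%. CCAAT was in 39.3% against 37.4%, and the TATAAA box in 7.86% against 13.6%. The median GC content was 58.5% against 52.7%. Such matches describe the sequence and were not measured as bound sites.

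A feature of the arrays bears on every ratio below. Spots lay in 48 blocks, 4 across and 12 down, and background was recorded per block. On the Rex1 arrays the mean Cy3 background was 9494 to 9586 in block rows 11 and 12 and 7749 to 8668 in rows 1 to 10. After loess over the whole array, the median Nkx2.5 over Rex1 log2 ratio of all probes was 0.25 to 0.39 in rows 11 and 12 and -0.09 to 0.06 in the other rows. For Flk1 over Rex1 these ranges were 0.24 to 0.63 and -0.13 to 0.02. Rows 11 and 12 held 16.6% of all probes, 31 of the 169 members and 82.2% of all probes called higher in Nkx2.5 than in Rex1. Results are therefore given with loess over the whole array, the planned setting, and with loess within each block, which was added after this pattern was seen.

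**Figure D1:**
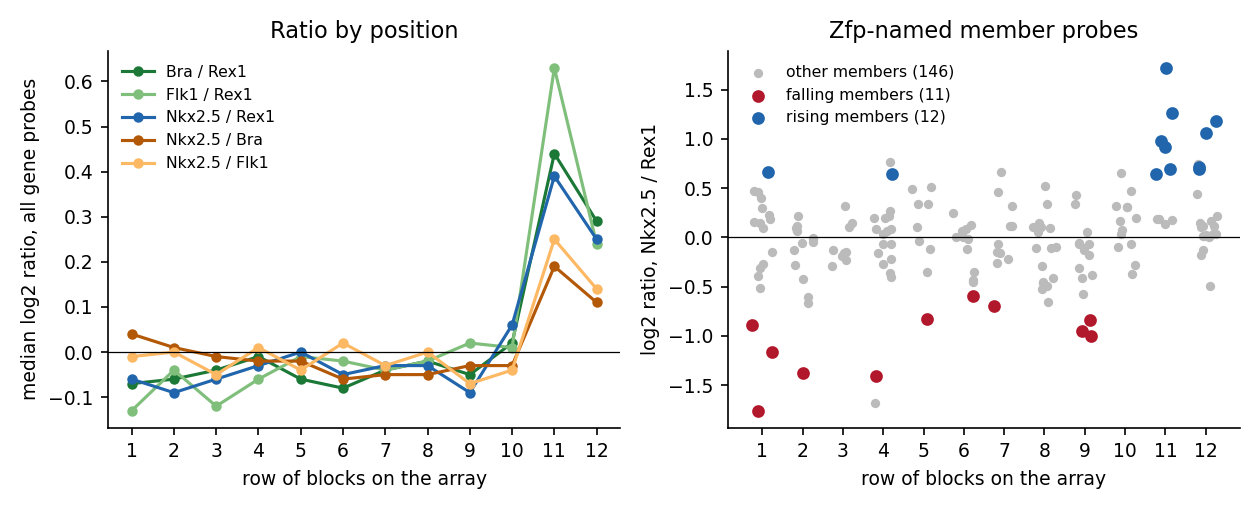
Left, the median log2 ratio of all gene probes (y axis) in each of the 12 rows of blocks (x axis), 1 line for each array, after loess over the whole array. Right, the Nkx2.5 over Rex1 log2 ratio of each of the 169 member probes by row, with points spread sideways for legibility. Of the 12 rising members 10 lie in rows 11 and 12, and all 11 falling members lie in rows 1 to 9.

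Across the whole set the members were centred near no change. Their median log2 ratio with whole-array loess was 0.03 for Bra over Rex1, 0.01 for Flk1 over Rex1 and 0.02 for Nkx2.5 over Rex1. It was -0.03 where Bra and -0.04 where Flk1 was the reference for Nkx2.5. The medians of all probes lay between 0.001 and 0.006. The spread was also that of the array: the SD over members was 0.49 for Nkx2.5 over Rex1, against 0.48 over all probes. Within blocks the member medians lay between -0.03 and 0.004, and the SD for Nkx2.5 over Rex1 was 0.37 against 0.40. On that array 133 of 169 members (78.7%) had a ratio under 0.5 in size, as did 78.6% of all probes. On that array the median net signal of members was 2254 in Rex1, against 2520 over all probes, and 2763 in Nkx2.5, against 3358. The negative controls were exceeded in Rex1 by 84.6% of members and 81.0% of all probes.

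**Figure D2:**
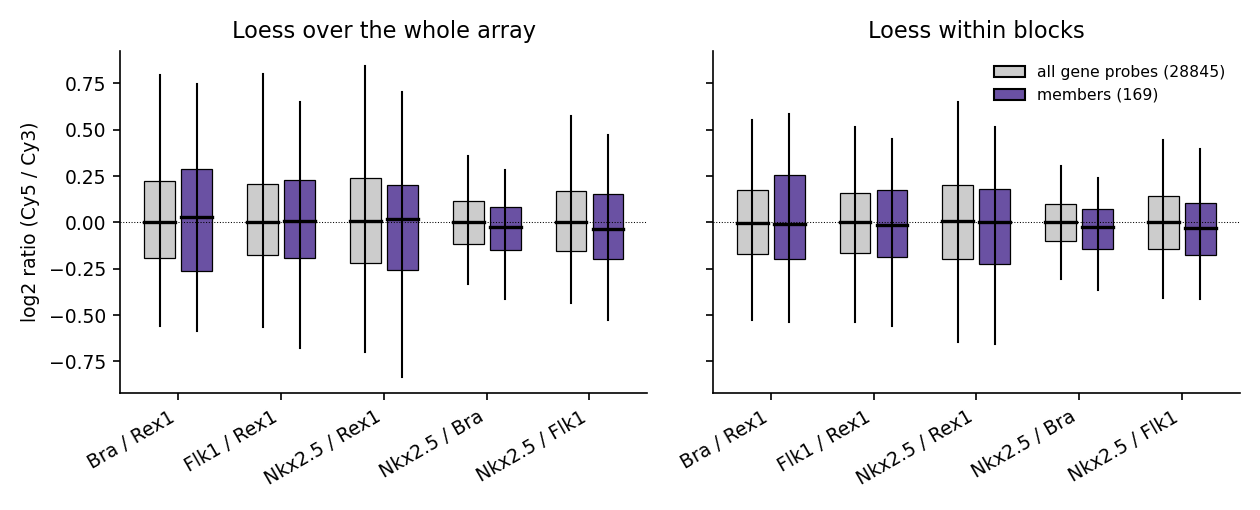
Log2 ratios (y axis) of all 28845 gene probes (grey) and the 169 members (purple) on each of the 5 arrays (x axis), with loess over the whole array (left) and within blocks (right). Boxes span the quartiles, the bar in each is the median and the lines reach the percentiles 5 and 95; member medians sit between -0.04 and 0.03 in both panels.

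Each comparison had a pair of readings: on the array of the pair, and through the other arrays of its triangle (Bra over Rex1, for example, as Nkx2.5 over Rex1 minus Nkx2.5 over Bra). A probe passed the 2-fold rule with log2 ratios of 1 or more in size and of 1 sign in both readings, if the brighter population was well above background, which means above percentile 95 of 96 negative control spots. From the disagreement around the triangles the error of 1 array was 0.23 log2 units over the members with whole-array loess and 0.20 within blocks. With whole-array loess, 2 members passed as lower in Bra than in Rex1 (0.25% of all probes passed), 2 as lower in Flk1 than in Rex1 (0.295%) and 4 as lower in Nkx2.5 than in Rex1 (0.745%). As higher than in Rex1, 3 passed in Bra (1.27%), 1 in Flk1 (0.749%) and 3 in Nkx2.5 (2.75%). No member passed between the later populations. The shares over all probes there were 0.319% higher and 0.0728% lower for Nkx2.5 over Bra, 0.34% and 0.101% for Nkx2.5 over Flk1, and 0.0173% and 0.00347% for Flk1 over Bra, which has no array of its own.

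Within blocks Zfp59 alone passed as lower in Bra (0.27% of all probes) and in Flk1 (0.281%), and Zfp97 alone as lower in Nkx2.5 (0.582%). As higher than in Rex1, 0 members passed in Bra (0.149% of all probes), Flk1 (0.187%) or Nkx2.5 (0.766%). With background left in the signal, 0 members passed in any comparison under whole-array loess, and 0.0104% of all probes or fewer did in each. In bulk RNA of this kind, fewer cells with a transcript and less transcript per cell cannot be told apart.

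Zfp97 was the only member that passed the 2-fold rule for Nkx2.5 over Rex1 in both settings. Zfp59 missed it narrowly within blocks, where its readings were -1.46 and, after rounding, -1.0. The net signal of Zfp97 in Rex1 was 3872, 3280 and 3058 on the 3 Rex1 arrays, set against 3314 in Bra, 2539 in Flk1 and 1846 in Nkx2.5. It was well above background in all 4 populations on every array. The log2 ratios were -1.26 for Bra over Rex1, -0.82 for Flk1 over Rex1 and -1.41 for Nkx2.5 over Rex1. Against the mesoderm populations Nkx2.5 gave -0.73 (Bra) and -0.35 (Flk1). Both readings of Nkx2.5 over Rex1 stood near each other, at -1.41 and -1.58, and at -1.42 and -1.41 within blocks. The second reading averages routes that were unlike: -1.26 and -0.73 through Bra, against -0.82 and -0.35 through Flk1. Within blocks these were -1.10 and -0.63, against -0.73 and -0.37. The nearness of the readings thus rests on that mean. Zfp97 thus lay below Rex1 in each later population, with the largest difference in the cardiac progenitors.

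Zfp59, a C2H2 zinc finger gene, was already low at day 4.5. Its lower probe gave net signals in Rex1 of 2235, 2012 and 2044, against 1751 in Bra, 954 in Flk1 and 896 in Nkx2.5 on the same arrays. The log2 ratios against Rex1 were -1.25 in Bra, -1.39 in Flk1 and -1.68 in Nkx2.5, and within blocks -1.10, -1.22 and -1.46. The ratios were -0.06 for Nkx2.5 over Bra and 0.31 for Nkx2.5 over Flk1, where Bra and Flk1 were not well above background on those arrays. A separate probe named Zfp59, well above background on every array, gave 0.01, -0.13 and 0.22 against Rex1. This probe lies in block row 12, and within blocks its ratios were -0.40, -0.45 and -0.05. The 2 probes therefore had one sign within blocks but kept a gap of 1.41 log2 units for Nkx2.5 over Rex1.

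In Zfp120 the Nkx2.5 value rests on a signal near background. Its net signal in Rex1 was 2095, 1730 and 1668, against 1638 in Bra, 803 in Flk1 and 409 in Nkx2.5. The Nkx2.5 signal was not well above background on any of its 3 arrays, and the Bra and Flk1 signals were so on 1 of 2 arrays each. Log2 ratios against Rex1 were -1.19 in Bra, -1.24 in Flk1 and -1.76 in Nkx2.5. Counting the dim signal at the background limit gave a level at least 2.67-fold lower in Nkx2.5 than in Rex1, an estimate from whole-array loess that is open to dye bias. Within blocks the ratios were -1.12, -1.02 and -0.99, which is below that estimate in size, and the second reading for Flk1 was -0.50. Zfp120 then passed in no comparison, while its ratio stayed negative on all 5 arrays. A dimmer probe of the same name, not well above background in Rex1, Flk1 or Nkx2.5 on any array, gave -0.22, -0.42 and 0.31 against Rex1.

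Zfp385, now Zfp385a, encodes a zinc finger protein that binds p53 and RNA. It passed as lower in Nkx2.5 than in Rex1 with whole-array loess, at -1.16 and -1.15 in its readings, and stood at -0.64 and -0.91 within blocks. Its net signals were 2242 in Rex1 and 1530 in Nkx2.5 on their shared array.

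A wider class was defined over all arrays: falling members had 5 negative ratios and Nkx2.5 over Rex1 at -0.5 or lower in both readings, and rising members the reverse. The arrays share populations, so their signs are not independent. The later population was in Cy5 on every array, so a dye bias of a probe would also give 1 sign on all 5. Such a bias would add up in the second reading of Nkx2.5 over Rex1. It cannot be told apart from a change here and was not tested. With whole-array loess 11 of 169 members fell (6.51%), where 3.83% of all probes did, and 12 rose (7.1%), where 6.15% did. Within blocks 10 fell (5.92%, against 3.31%) and 4 rose (2.37%, against 2.82%). Of the 11 falling members 9 also fell within blocks, and of the 12 rising members 3 also rose.

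Besides Zfp120, Zfp97 and Zfp385, the members that fell in both settings were Zfp397, Zfp125, Zfp100, Zfp296, Zfp14 and Zfp259. Zfp397 had the ratios -0.53, -0.46, -1.38, -0.21 and -0.58 in the order Bra, Flk1 and Nkx2.5 over Rex1, then the progenitors over Bra and over Flk1, and -0.28, -0.18, -0.65, -0.15 and -0.44 within blocks. Zfp125 differed in timing: its ratios in that order were -0.27, -0.17, -0.997, -0.71 and -1.02. It was thus near Rex1 in both mesoderm populations and low in the cardiac progenitors, also within blocks (-0.26, -0.18, -0.85, -0.72 and -0.96).

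Zfp100 is now Zbtb17, the Myc partner Miz-1. Its ratios were -1.02, -0.83, -0.89, -0.05 and -0.29, most of the difference being present at day 4.5, and its 3 Rex1 ratios within blocks were -0.79, -0.39 and -0.52. Zfp296 encodes a stem cell factor that binds Klf4. Its lower probe gave -0.94, -0.71, -0.84, -0.25 and -0.19, and -0.76, -0.65 and -0.67 against Rex1 within blocks. The other Zfp296 probe gave -0.27, -0.35 and -0.16 against Rex1, of the same sign and smaller. Zfp259, now Zpr1, a partner of the motor neuron protein Smn1, had -0.53, -0.69 and -0.70 against Rex1. Zfp14 had -0.27, -0.53 and -0.83. Zfp54 and Zfp95, now Zkscan5, met the rule only over the whole array, with Nkx2.5 over Rex1 at -0.60 and -0.95 there and -0.35 and -0.77 within blocks. Zfp95 missed the rule within blocks through its second reading, which was -0.43. Zfp371, now Zscan5b, met it only within blocks, at -0.66.

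**Figure D3:**
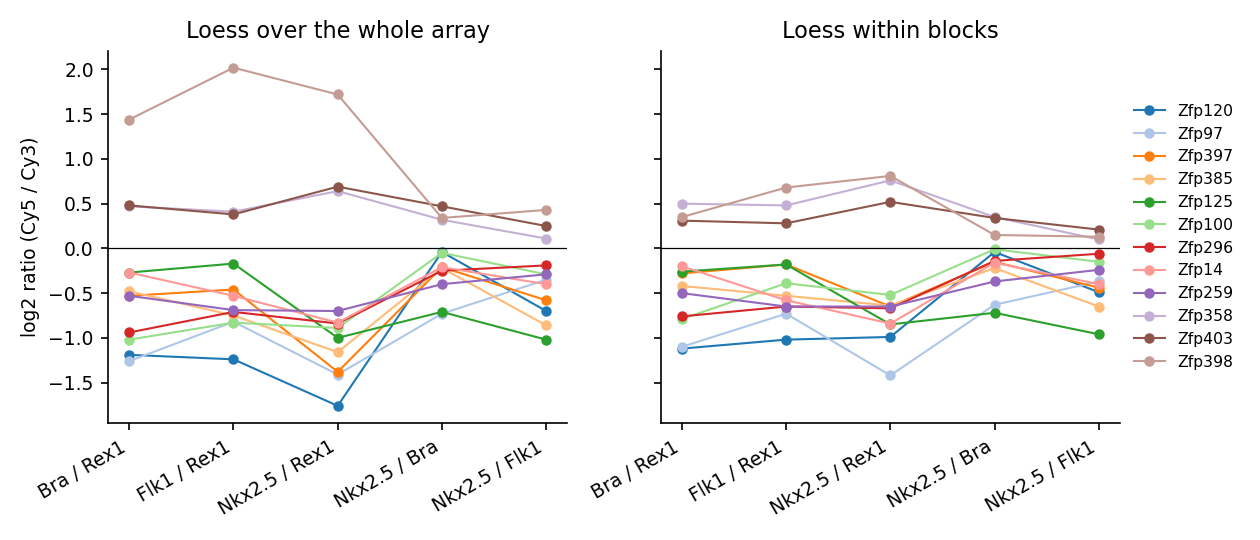
Log2 ratios (y axis) on the 5 arrays (x axis) of the 9 falling and 3 rising members that met the rule in both settings, with loess over the whole array (left) and within blocks (right). Zfp125 stays near 0 in Bra and Flk1 and reaches -0.997 in Nkx2.5 over Rex1, and Zfp398 drops from 1.72 to 0.81 there between panels.

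On the rising side, all 3 members that passed the 2-fold rule lay in block rows 11 and 12 and were not well above background in Rex1 on any of its 3 arrays. That cut was 1 value per channel and array. The median Rex1 net signal of all probes was also lower in rows 11 and 12 (1934 and 1823) than in rows 1 to 10 (2367 to 2948). Zfp398 encodes a C2H2 protein whose human counterpart binds estrogen receptor alpha. Its net signal in Rex1 was 508, 490 and 221, against 2805 in Bra, 2616 in Flk1 and 1868 in Nkx2.5. The log2 ratios over Rex1 were 1.44, 2.02 and 1.72. Counting Rex1 at the background limit gave whole-array estimates of at least 1.1-fold higher in Bra, 1.3-fold in Flk1 and 1.19-fold in Nkx2.5. In log2 units these are 0.14, 0.37 and 0.25. Zfp398 lies in row 11, where the medians of all probes were 0.44, 0.63 and 0.39. The row shift is larger than each estimate, so they are not firm lower bounds, and they are also open to dye bias. Within blocks the ratios of Zfp398 were 0.35, 0.68 and 0.81, all positive and under 1.

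Zfp60 and Zfp334 showed the same loss of size. Zfp60 gave 1.01, 1.89 and 1.26 over Rex1 across the whole array and 0.57, 0.77 and 0.64 within blocks. Zfp334 gave 1.14, 0.65 and 1.18, and 0.31, -0.15 and 0.38 within blocks. With Rex1 at the background limit, the whole-array estimate for Zfp60 was at least 1.14-fold higher in Flk1 (0.18 log2 units). Zfp60 lies in row 11 too, where the Flk1 over Rex1 median of all probes was 0.63, larger than this estimate. No lower bound was given for the other ratios of Zfp60 or for Zfp334. The scanner software marked the spot Bad on 1 array for Zfp398 and Zfp60 and on 3 arrays for Zfp334. Without probes marked Bad on an array used, 0 members passed as higher than Rex1 in any population, where 0.742%, 0.527% and 1.71% of all probes passed in Bra, Flk1 and Nkx2.5.

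Zfp358 and Zfp403 rose in both settings beside Zfp398, with smaller ratios and a Rex1 signal well above background on all 3 arrays. Zfp358, in block row 4, had 0.47, 0.41, 0.64, 0.32 and 0.11, and 0.50, 0.48, 0.76, 0.35 and 0.10 within blocks. Its value did not shrink within blocks. Zfp403, now Ggnbp2, a gametogenetin-binding protein, had 0.48, 0.38, 0.69, 0.47 and 0.25, and 0.31, 0.28, 0.52, 0.34 and 0.21 within blocks. Zfp90 met the rule within blocks only, where its Nkx2.5 over Rex1 readings were 0.77 and 0.70.

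The other rising members with whole-array loess were Zfp580, Zfp275, Zfp148, Zfp422, Zfp28, Zfp313 and Zfp292. Their Nkx2.5 over Rex1 ratios ran from 0.64 for Zfp28 to 1.06 for Zfp275. All but Zfp292 lay in rows 11 and 12, and within blocks none of these 7 met the rule. Zfp28 then had -0.05 and Zfp275 had 0.11. Zfp292, Zfp148 and Zfp422 stayed positive on every array within blocks. Their Nkx2.5 over Rex1 readings there were 0.48 and 0.54 for Zfp292, 0.46 and 0.91 for Zfp148, and 0.34 and 0.14 for Zfp422. Zfp580 had 0.47 and 0.44, with -0.03 for Nkx2.5 over Bra and -0.17 for Nkx2.5 over Flk1. Zfp313, now Rnf114, a ubiquitin ligase, had 2 probes that kept one sign, at 0.50 and 0.60 within blocks.

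**Figure D4:**
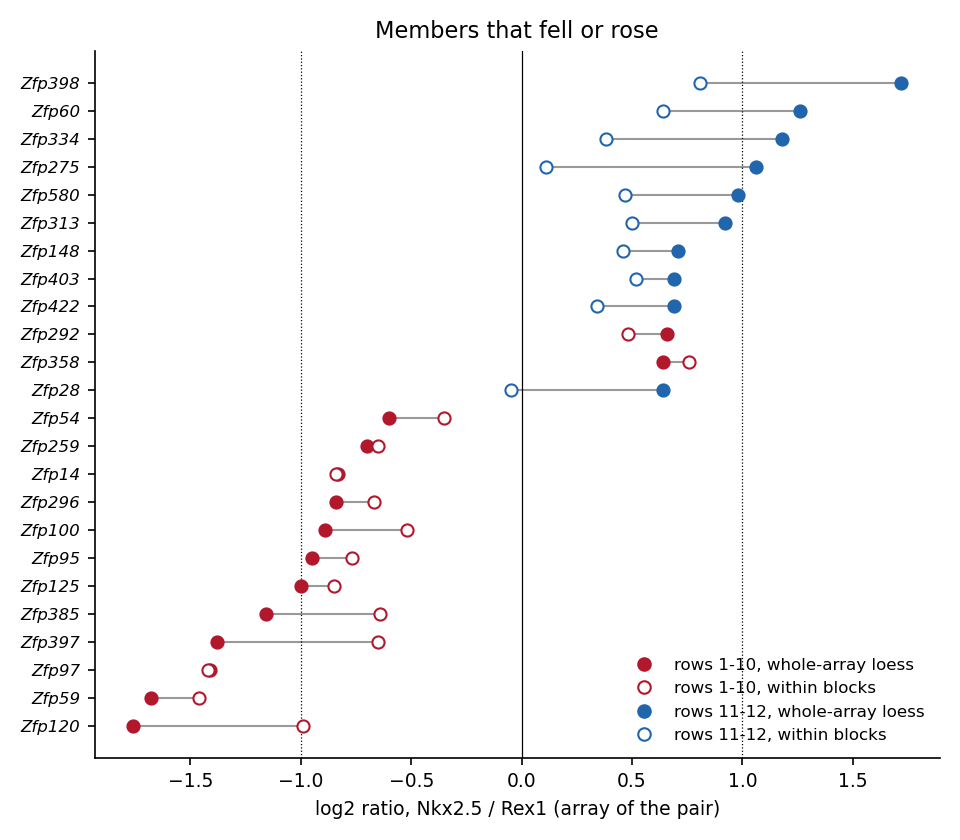
Nkx2.5 over Rex1 log2 ratio (x axis) of members (y axis), with whole-array loess (filled) and loess within blocks (open). Drawn are the members that fell or rose with whole-array loess or passed the 2-fold rule in either setting. Zfp371, which fell within blocks only, and Zfp90, which rose within blocks only, are not drawn. Red marks block rows 1 to 10 and blue rows 11 and 12, and dotted lines mark a 2-fold difference. Zfp97 stays at -1.41 and -1.42, while Zfp398 moves from 1.72 to 0.81 and Zfp120 from -1.76 to -0.99.

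Names with several probes gave a check on single readings. There were 32 such names with 76 probes, up to 5 a name. With whole-array loess their probes had one sign for Nkx2.5 over Rex1 in 16 of 32 names, the median gap was 0.46 and 5 names had a gap over 1. Within blocks 17 names had one sign, the median gap was 0.365 and 2 names, Zfp59 and Zfp120, had a gap over 1. Zfp275, whose 3 probes spanned -0.39 to 1.06 over the whole array, spanned -0.32 to 0.11 within blocks. Probes of one name can match different transcripts of a gene, which the files do not state.

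**Figure D5:**
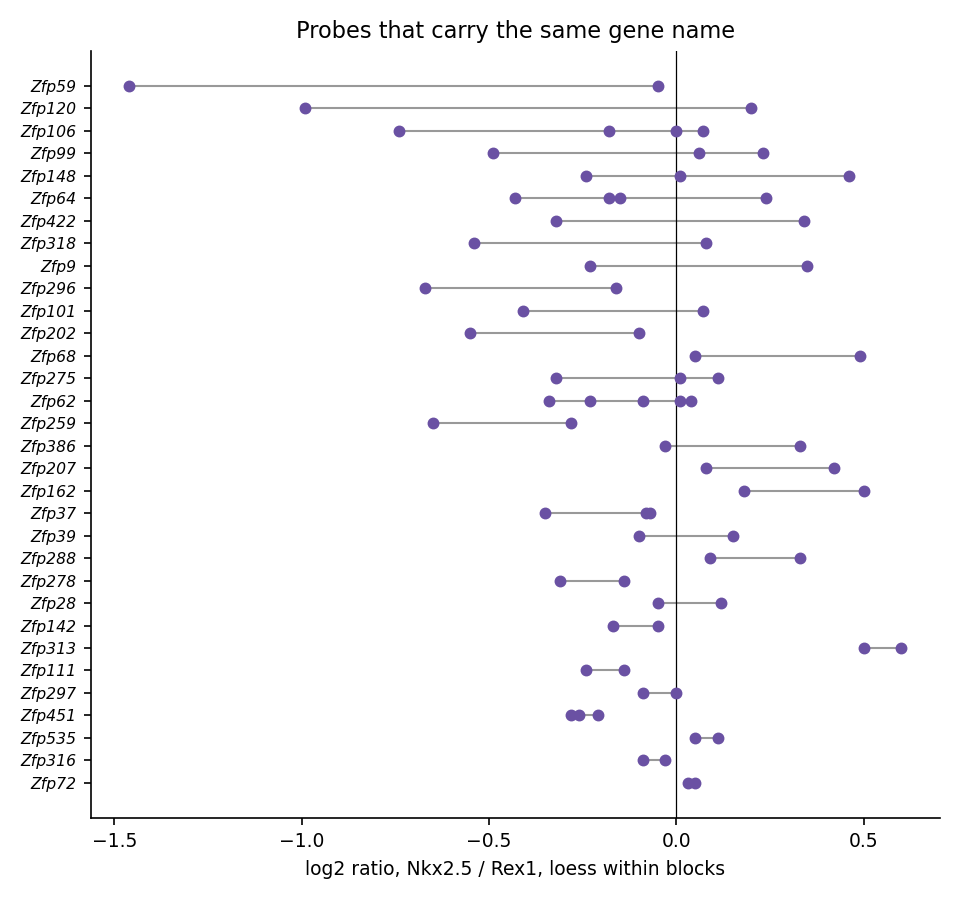
Nkx2.5 over Rex1 log2 ratio within blocks (x axis) of every probe for the 32 names with more than 1 probe (y axis), ordered by the gap between lowest and highest. Zfp59 and Zfp120 have the widest gaps, 1.41 and 1.19.

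Zinc finger genes often lie in tandem clusters, and 31 of 124 placed members were neighbours in 10 groups, with at most 2 other genes between them. The largest group, 9 genes from Zfp112 to Zfp94, held no falling and no rising member. Its Nkx2.5 over Rex1 ratios ran from -0.18 for Zfp235 to 0.52 for Zfp112. Zfp59 and Zfp60 are neighbours. For Nkx2.5 over Rex1 within blocks the Zfp59 probes had -1.46 and -0.05, and Zfp60, not well above background in Rex1, had 0.64. In 3 of the 10 groups all probes had one sign with whole-array loess.

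By role, 19 of 39 listed members of 9 functional lists were measured, and 0 of them passed the 2-fold rule in either setting. For Nkx2.5 over Rex1, 3.49% of all probes passed with whole-array loess. Within blocks 0.766% passed as higher and 0.582% as lower. A count of 0 among 19 therefore does not set these genes apart from other probes. Each gene was read on its brightest probe, and ratios are from whole-array loess unless stated. For Nkx2.5 over Rex1 they ran from -0.40 for Zfp281 to 0.71 for Zfp148, and within blocks from -0.40 for Zfp110 to 0.46 for Zfp148. Zfp57, which protects imprinted methylation, had 0.21, -0.11 and -0.22 over Rex1, and -0.03, -0.07 and -0.22 within blocks. Zfp281, a regulator of Nanog, had -0.28, -0.25 and -0.40, and Zfp143, a promoter factor needed in stem cells, had -0.28, -0.27 and -0.35. Zfp36, the mRNA decay factor tristetraprolin, had 0.36, 0.06 and 0.27. Zfp260, a partner of Gata4 in heart muscle, had -0.59, 0.03 and 0.16, and 0.36 for Nkx2.5 over Bra. Of 5 listed repressors of retroelements and of Igf2, 0 were among the names measured.

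The corepressor machinery that KRAB proteins use was measured for 24 of 29 listed genes, 1 of them the member Zfp198, now Zmym2. Its median ratios were -0.07, -0.08 and -0.21 over Rex1, and -0.18 for Nkx2.5 over Rex1 within blocks, where all probes had medians of 0.006 and 0.007. In both settings 2 genes passed as lower in Nkx2.5 than in Rex1 (0.745% of all probes with whole-array loess, 0.582% within blocks). In both, 1 gene passed as lower in Nkx2.5 than in Flk1 (0.101% and 0.104% of all probes). The former were Dnmt3l, a DNA methyltransferase cofactor, at -1.22, and Morc3, a chromatin ATPase, at -1.28. The latter was Dnmt3b, a de novo DNA methyltransferase, at -1.05. Trim28 itself had -0.29, -0.24 and -0.55 over Rex1 and did not pass.

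The sort markers were read against the labels. Zfp42 was at -1.74, -1.76 and -1.68 over Rex1 in Bra, Flk1 and Nkx2.5. T was at 1.07 in Bra over Rex1 and also at 0.81 in Flk1 over Rex1, so it separated these 2 populations little. Kdr was at 0.68 in Flk1 over Rex1, and Nkx2-5 at 0.53 in Nkx2.5 over Rex1 and 1.40 in Nkx2.5 over Flk1. Only Zfp42 passed the 2-fold rule. In the same Nkx2.5 over Rex1 comparison with whole-array loess, 7 of 15 sarcomere genes, 4 of 9 blood genes and 5 of 14 endoderm genes passed as higher. Of all probes 2.75% did. Within blocks the counts were 6, 4 and 4, where 0.766% of all probes passed. In both settings 0 of 8 fibroblast feeder genes passed in either direction. Their part in the member values was not tested.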

How the data were processed

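RNA of 4 populations was amplified and labelled with Cy3 or Cy5, per the labels' protocols. Intensity was deposited as scanner values, with a median signal and a local background per channel named in the file headers, and testing on the files showed that the authors' median signal already had 1 background value per block of 625 spots subtracted. For the scanner software, the name is not given in the sources used here. A series table was deposited too, with log2 ratios, which equal the scanner log2 ratio minus 1 constant per array; its columns had medians of -0.0846, -0.0599, -0.0578, -0.00732 and -0.0728 (Bra, Flk1 and Nkx2.5 over Rex1, then Nkx2.5 against Bra and against Flk1). The origin of its values for spots marked Bad stays unknown.

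Foreground (signal plus background) was corrected by normexp at an offset of 50 and normalised by loess within each array, with limma 3.58.1 (R 4.3.3) and controls weighted 0. Ratios are Cy5 over Cy3, so dye bias does not cancel. Loess within each of the 48 blocks and leaving out Bad spots were added after the data were seen. Levels at the background limit came from channels normalised by loess and Aquantile, and a fold is given as at least a value only where both whole-array readings reach it. Arrays number 1 per pair, which limits the precision. Tables were made in Python 3.11.15. The rules were tested on simulated data.

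Probes were matched to RefSeq (GRCm38.p6, used for names, order and promoters) by accession for 72, symbol for 73 and synonym for 23, with 1 unmatched. The members and lists were chosen with earlier results of these data known. Named members are Zfp120, those that passed the 2-fold rule, the 6 highest and 6 lowest per comparison of which the text gives a part, falling and rising members, list members, and the 5 names whose probes differed most. Classes by zinc finger number and KRAB domain, and Zscan-named probes of other families, were not analysed here.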

Additional observations from a re-analysis of the deposited data

How the results depend on the processing

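Member medians moved by 0.0488 log2 units or less from the whole-array values under the other settings tried, the largest gap between the medians of the 2 readings, except for Nkx2.5 over Rex1 with probes well above background in both channels (-0.056). Counts by direction are given over Rex1 in the order Bra higher, Bra lower, Flk1 higher, Flk1 lower, Nkx2.5 higher, Nkx2.5 lower, where they differ by over 1.5 times from 3, 2, 1, 2, 3 and 4. Without background subtraction all of these were 0, and 0 members fell or rose (0.159% and 0.128% of all probes). Without it 6 of 24 named probes, all above 0 before, changed sign in Nkx2.5 over Rex1: Zfp60 (-0.05), Zfp275 (-0.14), Zfp334 (-0.16), Zfp28 (-0.12), Zfp148 (-0.099) and Zfp292 (-0.031). The deposited series table gave 0 for Bra higher, Bra lower and Flk1 higher (0.603%, 0.125% and 0.312% of all probes). It gave 1 member (Zfp120) lower in Nkx2.5 than in Flk1 (0.0728%). With both channels well above background the counts were 0, 0, 0, 0, 0 and 2, and 5 members rose (2.43% of all probes). The shares over all probes for these counts were 0.128%, 0.184%, 0.146%, 0.243%, 0.527% and 0.586%. Without Bad spots the 3 higher counts were 0 (0.742%, 0.527% and 1.71% of all probes) and 8 members rose (4.7%). Within blocks the counts were 0, 1, 0, 1, 0 and 1, and 4 members rose (2.82% of all probes). For these counts the shares over all probes were 0.149%, 0.27%, 0.187%, 0.281%, 0.766% and 0.582%. With the brightest probe a gene, 1 was lower in Bra and 1 in Flk1 (0.25% and 0.295% of all probes). At 1.5-fold the counts were 6, 4, 3, 5, 12 and 11. Of all probes 3.57%, 1.41%, 2.78%, 1.46%, 6.25% and 3.17% passed there. At this fold 2 members were lower in Nkx2.5 than in Bra (0.478% of all probes) and 1 lower than in Flk1 (0.621%). On the array of the pair alone 5 were higher and 4 lower in Bra (3.16% and 0.582% of all probes). There 3 were higher in Flk1 (3.43%), and 1 was higher and 1 lower in Nkx2.5 over Flk1 (1.32% and 0.225%). Least squares gave 3 higher in Flk1 (2.26% of all probes). With signs alone 30 members fell and 33 rose, where 15.2% and 17.2% of all probes did. No leave-out of a replicate and no paired analysis was possible because each pair of populations has 1 array. Signal limits the low side: the median Cy3 signal above background on the Rex1 arrays was 0.302 to 0.34 times the background itself.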

Other observations

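Other zinc finger families on the same arrays were read by name in Nkx2.5 over Rex1 with whole-array loess, where the members had an SD of 0.488. The 26 Klf and Sp probes had an SD of 0.711 and 2 passed as higher and 2 as lower, 15.4% of them against 4.14% of the Zfp-named members and 3.49% of all probes. Of 9 Zic, Gli and Glis probes 0 passed (SD 0.455), and of 16 Egr, Sall, Ikzf and Prdm probes 1 passed as higher (SD 0.353). Of 5 probes named Zbtb on the array 0 passed (SD 0.518). These families were not recomputed within blocks, and the difference between them was not tested.

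Among members that carry other names today, the 5 probes of ring finger genes had a median of 0.47 in Nkx2.5 over Rex1 and 0 of them lay below 0 with whole-array loess. Within blocks the median was 0.18 and 1 lay below 0. Of the 12 Zbtb probes 9 lay below 0, with a median of -0.07, and within blocks 6 did, with a median of -0.02. These groups were chosen by current name alone.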
